A study of Silurus lanzhouensis with 6 samples.

Results

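Back muscle of 6 catfish (Silurus lanzhouensis) was profiled by RNA sequencing, and 100 clusters of assembled transcripts are described here whose level was higher in each of the 3 heaviest fish than in any of the 3 lightest. A cluster is the unit of the deposited expression table, which holds 89579 of them. The level is given in FPKM, a fragment count divided by transcript length and library size. The members were chosen by their measured levels in these same fish. A cluster had to be above 0 in all 6 fish, with a mean of at least 10 and under 100 FPKM, which 4058 clusters met. For each of these the lowest of the heaviest fish was divided by the highest of the lightest fish, and the 100 largest ratios above 1 were kept. The direction of the difference is therefore fixed by the choice, and the group values below are a description with no test behind them.

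The heaviest and the lightest fish were F3 fingerlings from 1 tank, bred from F2 females under selection and wild males, and both groups had been reared for 16 weeks. Both groups thus share this type of cross, the tank and the rearing time, and they differ by label only in being the heaviest or the lightest fish taken from the tank. Each library is a separate fish, with 3 per group. The weight, family and sex of each fish are not used here.

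Skeletal muscle makes up most of the body mass of a fish. It grows both by adding new fibres and by enlarging existing ones, and many bony fish keep adding fibres well after hatching. Fibre enlargement depends on the balance between making and breaking down proteins of the contractile apparatus. These are general facts, and the clusters cannot be assigned to them: no gene name is paired with a cluster ID in the files, so neither the roles of the members nor the muscle identity of the samples could be checked against known genes. A lower level in whole tissue can come from fewer cells of a type or from less RNA per cell, which cannot be told apart here.

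Heaviest fish 1 stood somewhat apart from the others. Its mean Pearson correlation with the other 5 fish was 0.751 on log2(FPKM + 1), across clusters averaging 1 FPKM or more, against 0.805 to 0.818 for the rest. Relative sequencing depth, read from the most frequent ratio between low values of pairs of fish, ran from 0.917 to 1.073 of the geometric mean. Absolute depth is unknown. Heaviest fish 3 had low levels across the clusters that met the level limits: its median over the 3958 that are not members was 15.9 FPKM. The same median was 19.4 and 19.5 FPKM in heaviest fish 1 and 2, and 19.0, 18.7 and 20.7 FPKM in lightest fish 1, 2 and 3. The rule takes the lowest heaviest fish, which was heaviest fish 3 in 50.9% of these 3958 clusters. Among the 100 members it was heaviest fish 3 in 43, little more often than heaviest fish 2, in 37. No pair of fish had identical values.

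The 100 members mostly differed between the groups by moderate factors, and the level limits left out clusters at 0 in any fish. Their group mean had a median of 22.7 FPKM over the heaviest fish (range 11.9 to 128.6) and 13.1 FPKM over the lightest fish (range 4.61 to 65.5). The fold between group means, heaviest over lightest, had a median of 1.76 and ran from 1.25 to 4.52. Among the 3958 other clusters that met the level limits the median fold was 0.952. Most members thus stood at less than double level in the heaviest fish: 19 had a fold under 1.5, 47 a fold of 1.5 to under 2, 26 a fold of 2 to under 3, and 8 a fold of 3 and over. With heaviest fish 1 left out of the mean, the median fold of the members was 1.71 and the range 1.23 to 3.70, against a median of 0.921 in the other clusters.

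**Figure D1:**
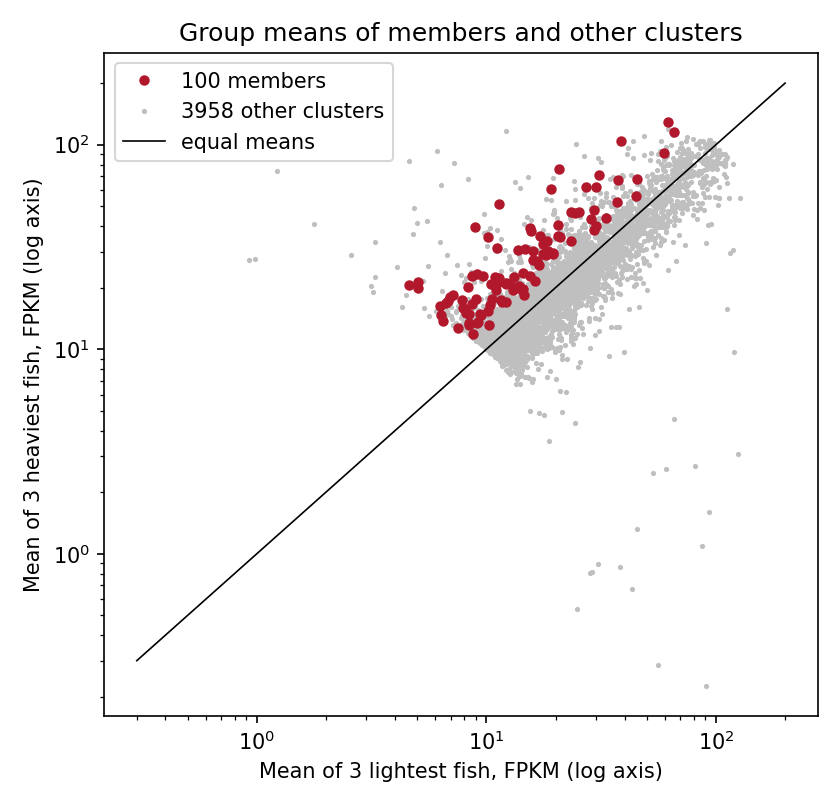
Mean FPKM of the 3 heaviest fish (vertical) against mean FPKM of the 3 lightest fish (horizontal), both on log axes, 1 point per cluster that met the level limits. The 100 members (red) lie above the line of equal means, with lightest-fish means of 4.61 FPKM and over, while many grey points lie farther from the line than most members do.

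Most members also stood well above 0 in the lightest fish, but this is not particular to them. The members' median was 13.0, 12.3 and 13.0 FPKM in lightest fish 1, 2 and 3, against 19.0, 18.7 and 20.7 FPKM in the other clusters. Of the 100 members, 0 had a mean under 1 FPKM in the lightest fish, 30 lay between 1 and under 10 FPKM and 70 at 10 FPKM and over. The other clusters were not counted in these classes. The lowest value of a member in a single lightest fish was 1.34 FPKM, in lightest fish 1. The 30 lower ones had a median fold of 2.17, and the 70 higher ones a median fold of 1.69. The level limits fix part of this gap. With a low mean in the lightest fish, a cluster needs a higher mean in the heaviest fish to reach 10 FPKM over all 6. By mean over all 6 fish, 54 members lay at 10 to under 20 FPKM, 38 at 20 to under 50 and 8 at 50 to under 100. These were 2.54%, 2.61% and 1.67% of all clusters in those classes. The median over the members was 17.5 FPKM and that of the other clusters 19.2 FPKM, so the members sat at ordinary levels within the limits.

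The 2 members with the largest ratio are given by ID and the others by rank. Cluster-6468.34552 had 31.23, 44.91 and 29.63 FPKM in heaviest fish 1, 2 and 3, against 12.47, 9.81 and 8.13 FPKM in lightest fish 1, 2 and 3. Its lowest heaviest fish was 2.38 times its highest lightest fish, the largest such ratio among the members. The mean of the heaviest fish was 35.3 ± 8.40 FPKM and that of the lightest fish 10.1 ± 2.19 FPKM (SD, n = 3 each), a fold of 3.48. Heaviest fish 2 was the high one here, and the other heaviest fish lay close together.

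Cluster-6468.33338 had the least spread between heaviest fish among the leading 10 members, with a highest value 1.15 times the lowest. It had 16.86, 16.18 and 18.67 FPKM in heaviest fish 1, 2 and 3, against 6.03, 7.79 and 6.57 FPKM in lightest fish 1, 2 and 3. The mean of the heaviest fish was 17.2 ± 1.29 FPKM and that of the lightest fish 6.80 ± 0.902 FPKM (SD, n = 3 each), a fold of 2.54. Neither group held a fish that stood off from the other two.

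The member at rank 3 was the most abundant of the leading 10, at 67.21, 46.08 and 68.91 FPKM in heaviest fish 1, 2 and 3, against 19.18, 23.21 and 15.02 FPKM in lightest fish 1, 2 and 3. Its fold of means was 3.17, and heaviest fish 2 was the low one in its group. At rank 4 the heaviest fish had 23.13, 25.44 and 19.50 FPKM, against 10.70, 7.60 and 7.72 FPKM in the lightest fish, a fold of 2.62. Ranks 5 and 7 had smaller folds but little spread among the heaviest fish. Rank 5 had 16.61, 19.93 and 16.42 FPKM in heaviest fish 1, 2 and 3, against 9.94, 9.18 and 7.92 FPKM in the lightest fish, a fold of 1.96. Rank 7 had 19.58, 15.17 and 15.17 FPKM in heaviest fish 1, 2 and 3, against 7.16, 9.32 and 9.52 FPKM in the lightest fish, a fold of 1.92. Between these, rank 6 had 40.86, 44.49 and 31.69 FPKM in the heaviest fish, against 14.62, 12.59 and 19.46 FPKM in the lightest fish, a fold of 2.51. In this member lightest fish 3 was the high one of its group.

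Ranks 8 to 10 had the largest folds of the leading 10, and also the largest spread among the heaviest fish. Rank 8 had 31.77, 10.20 and 17.62 FPKM in heaviest fish 1, 2 and 3, against 4.17, 4.51 and 6.49 FPKM in the lightest fish. Rank 9 had 73.02, 60.58 and 20.34 FPKM in heaviest fish 1, 2 and 3, against 13.14, 10.70 and 10.18 FPKM in the lightest fish. Rank 10 had 36.12, 7.60 and 17.87 FPKM in heaviest fish 1, 2 and 3, against 4.72, 4.93 and 4.18 FPKM in the lightest fish. In all 3 of these members heaviest fish 1 was the highest fish. The folds of means were 3.93, 4.52 and 4.45 with all 6 fish, and 2.75, 3.57 and 2.76 without heaviest fish 1. Rank 9 moved least, since heaviest fish 2 was also high there.

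**Figure D2:**
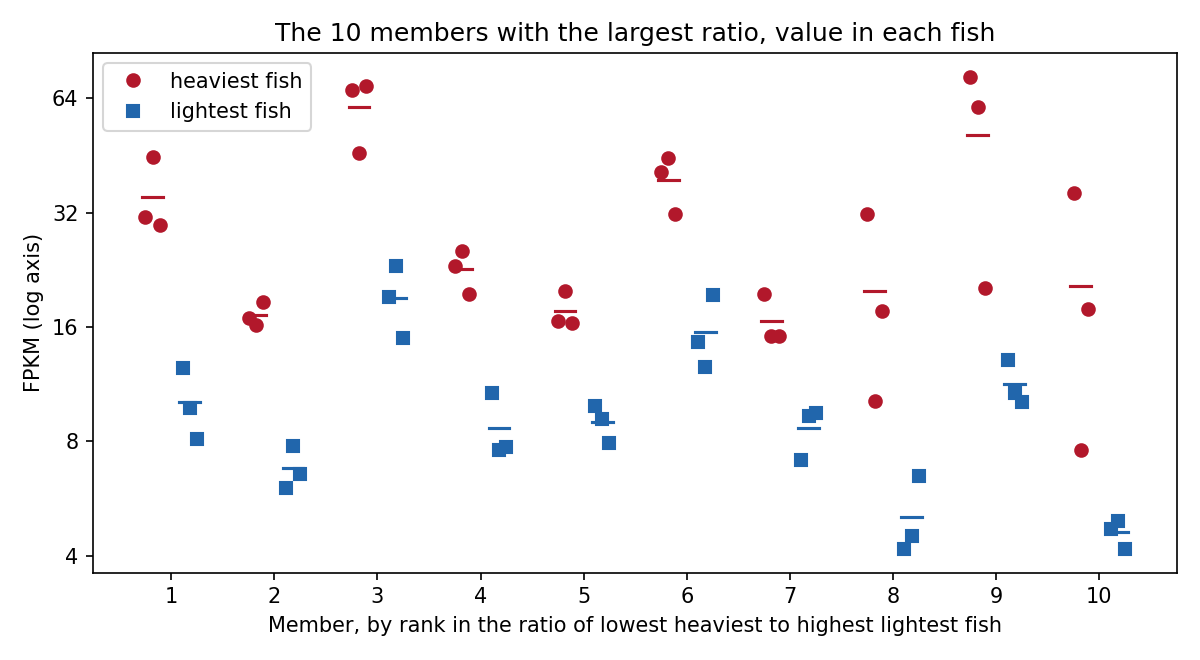
FPKM (log axis) of the 10 members with the largest ratio in each fish, with the heaviest fish as red circles and the lightest fish as blue squares, in the order 1, 2, 3 from left to right, and the group mean as a line. Ranks 1 to 7 show more compact heaviest groups, while at ranks 8 to 10 the heaviest fish spread widely, with heaviest fish 1 on top.

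The other 90 members, at ranks 11 to 100, had ratios of 1.12 to 1.52 with a median of 1.23. Their mean ranged from 11.9 to 128.6 FPKM in the heaviest fish and from 5.03 to 65.5 FPKM in the lightest fish, and the fold of means from 1.25 to 4.44 with a median of 1.71. The most abundant member stood at rank 64, with 163.02, 93.51 and 129.19 FPKM in heaviest fish 1, 2 and 3, against 52.41, 56.35 and 77.45 FPKM in lightest fish 1, 2 and 3. It averaged 129 ± 34.8 FPKM over the heaviest fish and 62.1 ± 13.5 FPKM over the lightest (SD, n = 3 each). Heaviest fish 2 and lightest fish 3 lay closer to each other than the outer fish of either group did. The smallest fold, 1.25, belonged to rank 77, singled out after its value was seen. It had 55.85, 56.95 and 54.93 FPKM in heaviest fish 1, 2 and 3, against 47.40, 40.41 and 46.35 FPKM in lightest fish 1, 2 and 3. This member met the rule through little spread among the heaviest fish, not through a large difference.

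At the limit of the list the ratio barely changed from one cluster to the next. Rank 100, the last member, had a ratio of 1.119, with 43.22, 42.35 and 46.39 FPKM in the heaviest fish, against 34.41, 27.38 and 37.83 FPKM in the lightest fish. Rank 101, just outside, had a ratio of 1.117, with 36.07, 16.50 and 4.87 FPKM in the heaviest fish, against 4.36, 1.86 and 3.40 FPKM in the lightest fish. The cluster just outside had a fold of means of 5.97, against 1.32 for the one just inside. At this limit, ordering by the extreme fish thus put compact groups before a larger mean difference. Within the list the median fold was 1.55 at ratios under 1.2, 1.83 at 1.2 to under 1.5 and 3.17 at 1.5 to under 2. It was 3.01 over the 2 members with a ratio of 2 and over. Of the 3958 other clusters, 101 had a fold of 2 and over, against 34 of the 100 members. The rule keeps only clusters with a fold above 1, so a larger share in the members follows from the choice. Only 24 members were among the 100 largest folds of means. The largest fold of all, 60.8, belonged to a cluster with a ratio of 0.153, in which a heaviest fish lay far below a lightest one.

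Summed over the 100 members, the level was 3463, 3170 and 2901 FPKM in heaviest fish 1, 2 and 3, against 1734, 1632 and 1711 FPKM in lightest fish 1, 2 and 3. As a share of all FPKM of the fish this was 0.338%, 0.318% and 0.302% in the heaviest fish, against 0.183%, 0.175% and 0.180% in the lightest fish. The share averaged 0.320% ± 0.0178 over the heaviest fish and 0.180% ± 0.00388 over the lightest (SD, n = 3 each). The members' median level was 27.9, 22.9 and 21.0 FPKM in heaviest fish 1, 2 and 3, against 13.0, 12.3 and 13.0 FPKM in lightest fish 1, 2 and 3. By these sums, shares and medians the lightest fish were close to each other, and the heaviest fish were less so. Within single members this did not hold. The highest fish of a group divided by its lowest had a median of 1.39 for heaviest fish, against 1.38 for lightest fish. That quotient was 2 and over in 11 members for heaviest fish, against 17 for lightest fish.

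**Figure D3:**
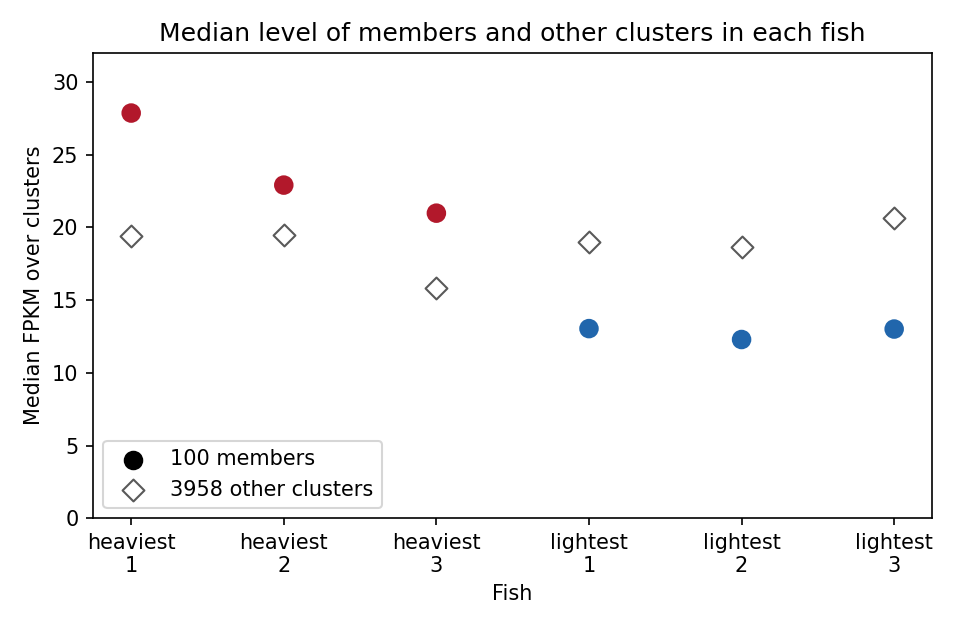
Median FPKM in each fish over the 100 members (filled circles, red in the heaviest and blue in the lightest fish) and over the 3958 other clusters that met the level limits (open diamonds). The members lie at 21.0 to 27.9 FPKM in heaviest fish and at 12.3 to 13.0 FPKM in lightest fish, which the rule fixes, and the open diamonds show heaviest fish 3 as the lowest, at 15.9 FPKM.

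The rule puts each member above 1 in every pair of fish across the groups, so a gap to the other clusters follows. Set fish against fish, each of the 9 pairs of a heaviest and a lightest fish had a median ratio over the members of 1.51 to 1.94. The highest was heaviest fish 1 over lightest fish 2 and the lowest heaviest fish 3 over lightest fish 1. Over the other clusters the same pairs had median ratios of 0.781 to 1.05, lowest for heaviest fish 3 over lightest fish 3 and highest for heaviest fish 2 over lightest fish 1. For heaviest fish 3 the median ratio of the members was 1.51, 1.69 and 1.60 over lightest fish 1, 2 and 3, where the other clusters had 0.855, 0.838 and 0.781. For heaviest fish 1 it was 1.86, 1.94 and 1.86, where the other clusters had 0.986, 0.990 and 0.915. The largest ratio of a single member was 15.7, for heaviest fish 2 over lightest fish 1, at rank 67. Lightest fish 1 had 1.34 FPKM in that member, against 9.82 and 12.4 FPKM in lightest fish 2 and 3. In the other pairs the largest ratio of a member ran from 6.39 to 13.2.

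The order of the fish within a group shows which libraries the list rests on. Heaviest fish 1 was the highest of its group in 49 members, fish 2 in 30 and fish 3 in 21. In the other clusters the shares were 37.1%, 49.2% and 13.7%. Heaviest fish 3 was the lowest of its group, and so set the ratio, in 43 members, fish 2 in 37 and fish 1 in 20, against 50.9%, 20.5% and 28.5% of the other clusters. Among the lightest fish, fish 3 was the highest in 38 members, fish 1 in 37 and fish 2 in 25, against 44.8%, 28.3% and 26.9% of the other clusters. Each of the 6 fish was thus the limiting one of its group in 20 or more members. These shares follow partly from the rule, which keeps clusters whose lowest heaviest fish is high, and they were not tested.

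Spread within the heaviest fish was smaller in the members than elsewhere, which the rule favours. The highest heaviest fish divided by the lowest had a median of 1.39 in the members and 1.66 in the other clusters. It was under 1.2 in 21 members, against 9.30% of the other clusters, and 2 and over in 11 members, against 30.5%. Within the lightest fish the same quotient had a median of 1.38 in the members and 1.34 in the other clusters. It was under 1.2 in 28 members, against 27.4% of the other clusters, and 2 and over in 17 members, against 14.7%. A single heaviest fish lay 1.5 times or more above the next in 13 members, of which 11 had heaviest fish 1 on top and 2 heaviest fish 2. In the other clusters this was 27.2%, with heaviest fish 1 on top in 12.1% and heaviest fish 2 in 12.8%. A single lightest fish lay 1.5 times or more below the next in 22 members, of which 10 had lightest fish 2 at the bottom, 7 lightest fish 3 and 5 lightest fish 1, against 13.2% of the other clusters. A single lightest fish lay 1.5 times or more above the next in 7 members, against 12.0% of the other clusters. These shares, too, follow partly from the rule, which takes the highest lightest fish, and they were not tested.

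The same ranking was made with the fish grouped in other ways, as the rule for the members asks, and the ratios of the heaviest fish lay within the range it gave. Of the 4058 clusters, 190 (4.68%) had every heaviest fish above every lightest fish, and the members are the upper 100 of these. In the opposite direction 403 clusters (9.93%) had every heaviest fish below every lightest fish. For the 18 other sets of 3 fish set against the remaining 3, the number ran from 31 to 674 with a median of 150.5, and 7 of the 18 sets had more than 190. The ratio at rank 100 was 1.12 for the heaviest fish, 1.21 in the opposite direction and 0.914 to 1.25 in the other sets, of which 4 were above the heaviest fish. At rank 50 it was 1.26 for the heaviest fish, 1.31 in the opposite direction and 0.966 to 1.35 in the other sets, of which 3 were above. The largest ratio was 2.38 for the heaviest fish, 15.1 in the opposite direction and 1.38 to 8.03 in the other sets, of which 6 were above. A list of 100 clusters of this length and with ratios of this size was therefore also obtained for some mixed sets of heaviest and lightest fish. In all 4 mixed sets above the heaviest fish at rank 100, heaviest fish 3 was among the lower 3 fish. With heaviest fish 3 in the higher set, the mixed sets reached at most 1.114 at rank 100, beside 1.119 for the heaviest fish. The sets were ranked only on FPKM as deposited, in which heaviest fish 3 had low levels. The set with the most clusters, 674, joined heaviest fish 2 with lightest fish 2 and 3, against heaviest fish 1 and 3 and lightest fish 1. Across the mixed sets with heaviest fish 3 among the lower fish, the number ran from 150 to 674.

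**Figure D4:**
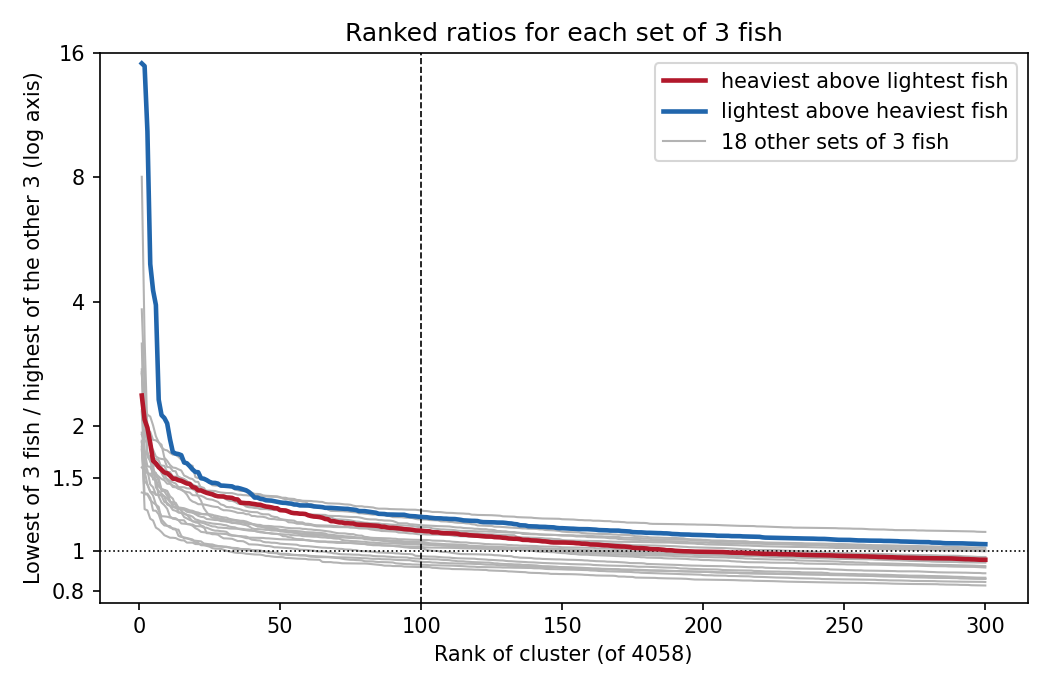
Ratio of the lowest of 3 fish to the highest of the other 3 (log axis) for the 300 leading clusters of the 4058, ranked separately for each set of 3 fish. The heaviest fish (red) run from 2.38 to 1.12 at rank 100 (dashed line) within the band of the 18 other sets (grey), and the opposite direction (blue) begins at 15.1 and stays above the red line.

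The members of the opposite direction had a median ratio of 1.31, lightest over heaviest, beside 1.25 for the members here. Their group means had a median of 12.7 FPKM over the heaviest fish and 30.9 FPKM over the lightest. The fold of means, lightest over heaviest, had a median of 1.85 in that list, beside 1.76, heaviest over lightest, for the members here. A fold of 2 and over was present in 42 of those and in 34 of the members here. Both lists come from 1 comparison of the same 6 fish, so they are set side by side without a test.

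A linear model across all clusters (limma on log2(FPKM + 1), adjusted over the 28592 clusters averaging 1 FPKM or more) called 3 of the 100 members higher in the heaviest fish at an adjusted p under 0.05. Over all clusters tested, 0.574% were called in that direction. The rule used the same contrast, so nothing is read from this count. At an unadjusted p under 0.05, 85 members passed, beside 3.55% of all clusters in that direction. The choice of members favours this share too, so nothing is read from it, here or in the other settings. The 3 called members were ranks 1, 2 and 3. Their log2 fold changes were 1.70 with an SE of 0.25 for Cluster-6468.34552, 1.23 with an SE of 0.18 for Cluster-6468.33338 and 1.61 with an SE of 0.25 for rank 3. The limma adjusted p was 0.0343, 0.0369 and 0.0421 in that order. Each of these members had its 3 heaviest fish above every lightest one, as the rule requires of all 100 members. Over all members the limma adjusted p had a median of 0.427 and reached 0.656, and the log2 fold change ran from 0.32 to 2.00 with a median of 0.78.

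The 3 calls did not hold in every setting. Tested among clusters above 0 in all 6 fish alone, limma called 0 members, with the same fold changes and 87 at an unadjusted p under 0.05. In that setting it called 0 of all 22745 clusters, and 658 were higher at an unadjusted p under 0.05. The 0 is thus not particular to the members. Without heaviest fish 1, and without each of lightest fish 1, 2 and 3, limma called 0 members. It called 1 without heaviest fish 2 and 3 without heaviest fish 3. In these 6 settings 56 to 73 members had an unadjusted p under 0.05. Of all 27311 to 29268 clusters tested there, 104 to 140 were called higher, and 660 to 1359 were higher at an unadjusted p under 0.05. All 100 members kept a positive log2 fold change in each limma setting, a direction that the choice of members fixes.

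In the comparisons made, the cluster IDs did not set the members apart. An ID has a number before and a number after the point, and all 100 members had the same number before it. So did 3946 (99.7%) of the other clusters that met the level limits, and 67.8% of the whole table. The number after the point had a median of 31671 in the members and 31581 in the other clusters. The sources used here do not say what these numbers stand for. Transcript lengths and sequences could not be joined to the members, because 0 of the deposited transcript IDs match a cluster ID.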

How the data were processed

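Total RNA from back muscle of 6 fish, 3 heaviest and 3 lightest, was sequenced after standard Illumina library preparation, per the labels' protocols. The labels also gave groups and replicate numbers. The values are FPKM as deposited by the authors, 1 column per fish and 1 value per cluster, with 2 decimals. Trimming, assembly, clustering, alignment and counting have no description in the sources used here, nor whether group labels entered the clustering.

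Ratios, ranks and summaries were computed from FPKM in Python 3.11.15 (numpy 2.4.6, pandas 2.3.3). The members and lists were chosen with earlier results of these data known. The ratio uses the most extreme fish of each group, so 1 fish can decide it. The linear model was limma 3.58.1 in R 4.3.3, on log2(FPKM + 1), with a variance trend, two-sided, Benjamini-Hochberg adjustment over the 28592 clusters averaging 1 FPKM or more, and a threshold of 0.05. Fold changes on that scale understate changes of low clusters. The step was also run on simulated normal values with known changes, with the spread shuffled over clusters. That run therefore does not check the relation of spread to level in these data. Relative depth is the most frequent ratio between values of 0.3 to 1.5 FPKM, in steps of 0.01 on the log2 scale. Without read counts, no counting interval can be given for a member. Full values were given for ranks 1 to 10, for the most abundant member, for the smallest limma p (rank 1) and at the limit of the list, and for rank 77, chosen as the smallest fold after its value was seen. Only 2 IDs are printed because no names are paired with them.

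Alternatives were 2 other pseudocounts, other filters, median-ratio scaling, quantile normalization, no trend, the replicate number as a block, other level limits, a ratio of means and each fish left out, with filters applied anew.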

Additional observations from a re-analysis of the deposited data

How the results depend on the processing

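Membership of the list depended on the processing. The direction of the members did not turn in any setting run, but the choice of members fixes that direction, so it is no sign of stability. Of the 100 members, 66 were among the 100 largest ratios with median-ratio scaling, 50 with a mean of 5 to under 100 FPKM, 46 with a mean of 20 to under 100 FPKM and 24 by the ratio of group means; with quantile normalization there were 73 and with FPKM + 1 there were 99. Leaving out each fish kept 46, without heaviest fish 3, to 78, when lightest fish 2 was dropped, and 72 without heaviest fish 1. Clusters with every heaviest fish above every lightest, 190 as deposited, numbered 348 with median-ratio scaling, 336 with quantile normalization, 348 from 5 FPKM and 97 from 20 FPKM, and 251 to 589 (without heaviest fish 3) with a fish left out, where the ratio cannot fall by construction. Under median-ratio scaling 98 members kept every heaviest fish above every lightest. The median log2 difference over the clusters within the level limits was -0.08 as deposited, -0.01 with median-ratio scaling and -0.04 with quantile normalization.

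The 164 clusters that limma called higher became 23 from a mean of 5 FPKM and 104 to 140 with a fish left out. Among clusters above 0 in all 6 fish they became 0 (658 at an unadjusted p under 0.05, with clusters at 0 left out). With a pseudocount of 0.1 or 0.5, either scaling or no trend, limma called 164 to 221 of 28052 to 28592 clusters higher. Of the members it called 4 with a pseudocount of 0.1, and 3 with 0.5, median-ratio scaling or quantile normalization. It called 2 members without a trend and 2 from a mean of 5 FPKM, where 9092 clusters were tested. The 3 members called became 0 among clusters above 0 in all 6 fish and 0 to 3 with a fish left out. Without a filter 1 member was called, where 83862 clusters were adjusted over and 233 of them were called higher. With the replicate block limma called 71 clusters higher and 0 members (75 at an unadjusted p under 0.05), the lowest adjusted p of a member being 0.131. Of all 28592 clusters tested with the block, 1026 were higher at an unadjusted p under 0.05. Deviations from the group mean had correlations of 0.171, 0.065 and 0.056 between fish with equal numbers, against -0.104 to 0.051 between the rest. Each fish correlated best with its own number, but heaviest fish 3 had 0.056 with lightest fish 3 and 0.051 with lightest fish 2. The deviations within a group sum to 0, so these correlations are tied to each other and no pairing is read from them. No label says that the numbers pair fish. The cause was not tested for changes with scaling or with the fish left out. The number before the point was shared by 100% of the 50 largest ratios and of all 190 ratios above 1, which stood in for the 200 largest.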
